A study of Homo sapiens with 8 samples.

Results

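Among 1964 predicted microRNAs listed in small RNA libraries of HEK293 cells, 79 (4.02%) had a raw count above 0 in all 8 libraries, and these 79 are described here. They were chosen by their counts, so their presence in every library is the rule and not a result. The whole table held 2867 rows, of which 903 were known microRNAs and 482 of those were also found in every library. HEK293 is an established human embryonic kidney cell line. Cells in 4 libraries had been transfected for 48 h with 100 nM of an ASO (antisense oligonucleotide, a synthetic strand made to pair with a chosen RNA), and 4 control libraries (NoASO) came from cells without it. The study concerns ASOs that inhibit precursor microRNAs by locking their shape, and the target named in the libraries is miR-31. There was no group with an unrelated ASO, and the labels do not state whether controls went through a mock transfection or whether the libraries of a group were separate cultures. The p-values thus measure only how these libraries spread, and that spread may be technical.

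A microRNA is cut from a hairpin precursor by the nucleases Drosha and Dicer, and its seed, the bases near its 5′ end, guides the Argonaute protein to target messenger RNAs. A predicted microRNA is a place where sequenced small RNAs pile up and the surrounding sequence could fold into such a hairpin, as judged by a program, and other small RNAs (fragments of tRNA, rRNA or small nucleolar RNA, and shifted copies of known microRNAs) can also be picked up by such searches. The program used is not given in the sources used here. The predicted rows carry only a running number (NovelmiRNA-1633, for example), a Length and counts, so their sequences, genome positions and targets were not analysed here, and the table states no function for any of the 79.

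What the Length column stands for was checked on known microRNAs, whose mature sequences are in RefSeq (GRCh38.p14). The sequences of the ASO target and of those among the 10 most abundant matched microRNAs whose Length differed from RefSeq are shown for this reason, with the seed in capitals.
miR-31-5p: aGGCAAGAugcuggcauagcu
miR-21-5p: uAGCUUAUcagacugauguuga
miR-10a-5p: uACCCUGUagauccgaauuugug
The mature miR-31-5p (chr9:21512158-21512178, minus strand) has 21 bases in RefSeq and a Length of 23 in the table. miR-21-5p (chr17:59841273-59841294, plus strand) has 22 bases and a Length of 23, and miR-10a-5p (chr17:48579904-48579926, minus strand) has 23 bases and a Length of 22. Of 796 known rows with a RefSeq mature sequence of the same name, 375 (47.1%) had the same length, 298 differed by 1 and 123 by more, with differences from −5 to 7. The Length therefore was not always that of the reference mature strand, and in the predicted rows it is given as the table states it.

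Total counts ran from 8168828 to 11677123 per library, so 1 count equals 0.0856 to 0.122 CPM (the count scaled to the library total). Levels below are CPM after TMM scaling, a correction for differences in library composition. Group levels are mean ± SD, n = 4. The target miR-31-5p stood at 832 ± 165 CPM in ASO libraries against 731 ± 303 CPM in controls, and the groups overlapped, so it gave no check of the labels. MicroRNAs listed as markers of other cell types had counts in some or all of the same libraries. Whether the HEK293 cells themselves made them, and their part in the results, was not tested. The liver microRNA miR-122-5p moved with the groups, at 24.8 to 40.4 CPM with ASO and 10.1 to 14.8 CPM in controls. The muscle microRNAs miR-1-3p ranged from 4.68 to 7.51 CPM and miR-133a-3p from 0 to 1.70 CPM, and the neural miR-9-5p from 3069 to 3741 CPM. The blood cell microRNA miR-142-3p was at 0 in 7 libraries and had 4 counts in control library 1. For miR-451a and miR-223-3p (blood) and miR-124-3p (neural), also on the list of markers, no values are given here.

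Most predicted rows were found in few libraries. Of the 1964, 1203 were above 0 in 1 library, 50 in 7 and 79 in all 8. The 79 held 26.7% of all counts on predicted rows, more than any other class by number of libraries, followed by the 73 rows found in 5 libraries with 21.8% and the 50 found in 7 with 15.5%. Single rows weighed heavily in these classes. NovelmiRNA-1920, found in 5 libraries, averaged 1714 CPM. NovelmiRNA-183, found in 7, averaged 1034 CPM, against a median of 1.79 CPM for the 50.

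**Figure D1:**
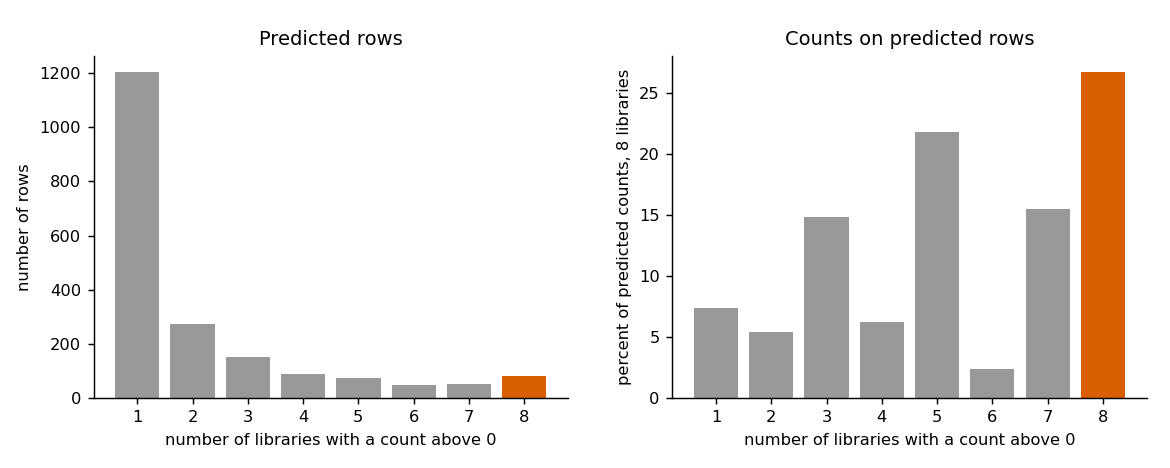
Predicted rows by the number of libraries (1 to 8) in which their count was above 0, as the number of rows (left) and as percent of all counts on predicted rows, 8 libraries summed (right). The 79 rows found in all 8 libraries (orange) are few beside the 1203 found in 1 library, and hold 26.7% of the counts.

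The lower edge of the set was made of weak rows. The smallest count of any member in any library was 4, for NovelmiRNA-77, which had 7, 14, 10 and 8 counts in ASO libraries 1–4 and 4, 14, 11 and 10 in controls 1–4. NovelmiRNA-1845 fell to 6 counts in control library 1 and NovelmiRNA-648 to 7 in control library 3. In 6 of the 79 the count was under 10 in at least 1 library.

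Rows just outside the set were not always weaker. The most abundant of the 50 rows found in 7 libraries, NovelmiRNA-183, had 13724, 13479, 12321 and 13449 counts in ASO libraries 1 to 4, 9666, 10726 and 10440 in controls 1 to 3, and 0 in control 4, where a count of 0 allows up to 0.267 CPM by counting error alone. It would have been the most abundant member. Another row of the same Length, NovelmiRNA-152, had 13986 counts in control 4, together with 13449 in ASO library 4 and 10440 in control 3, the same values as NovelmiRNA-183 in those 2 libraries, and 0 in the other 5. NovelmiRNA-1159 was at 0 in control 1 and between 997 and 1651 elsewhere, and NovelmiRNA-447 was at 0 in ASO library 3 and between 723 and 1347 elsewhere. A mean count of at least 10 was reached by 42 of the 50, and 70 predicted rows outside the set had a higher mean count than the median member. A 0 in this table can thus stand in a library beside a high count in the others.

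The 79 took a small part of each library. They held between 0.205% (ASO library 3, Wilson 95% interval 0.202 to 0.208%) and 0.281% (ASO library 4, 0.278 to 0.284%) of all counts, and these intervals cover counting error only. The mean share was 0.239% ± 0.0364 in ASO libraries and 0.243% ± 0.00564 in controls, ASO minus control being −0.0044 percentage points. The 4 controls lay between 0.236% and 0.249%, inside the range of the 4 ASO libraries.

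Abundance was concentrated in a few rows. NovelmiRNA-1633 held 34.4% of the members' counts, the 2 most abundant rows 57.4%, the first 5 74.1% and the first 10 83.5%. The median member had a mean level of 4.25 CPM, against 25.7 CPM for the 482 known microRNAs found in every library, and 58 of the 79 lay below 10 CPM while 4 lay at or above 100 CPM.

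**Figure D2:**
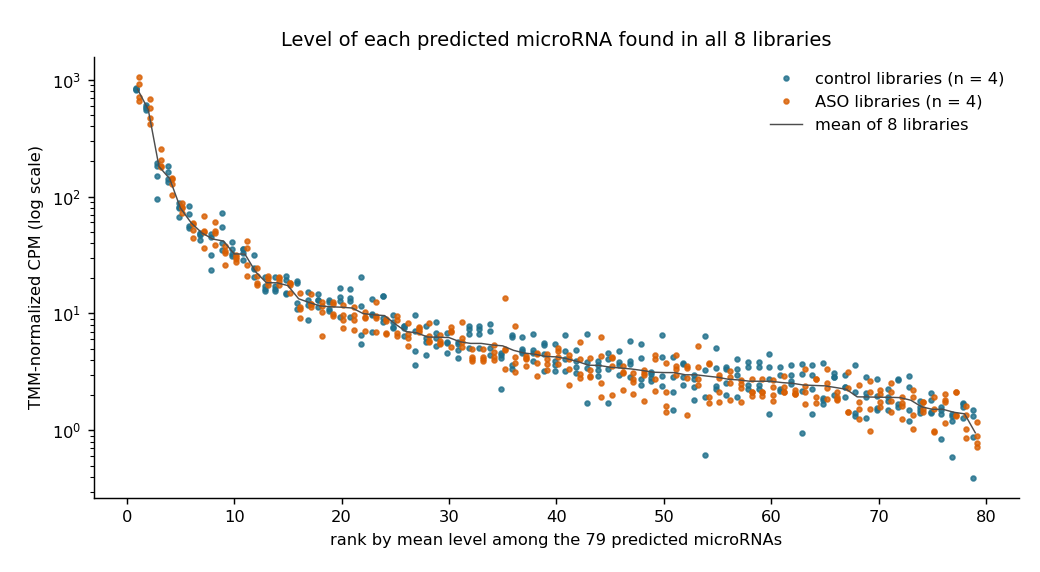
Level (TMM-normalized CPM, log scale) of each of the 79 predicted microRNAs in the 4 ASO (orange) and 4 control (blue) libraries, ordered by mean level (line). Levels run from a mean of 828 CPM to 0.954 CPM, and at every rank the spread between libraries can be read against the gap between groups.

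The most abundant member, NovelmiRNA-1633 (Length 18), stood at 712, 910, 650 and 1048 CPM in ASO libraries 1–4 and at 824, 811, 845 and 826 CPM in controls 1–4. The ASO libraries lay on both sides of the controls, which differed little among themselves. NovelmiRNA-458, also of Length 18, stood at 472, 571, 415 and 678 CPM with ASO and at 545, 582, 571 and 602 CPM in controls. Its libraries followed the same order in the ASO group, with ASO library 3 lowest and ASO library 4 highest.

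NovelmiRNA-329 (Length 23) had 182, 257, 204 and 180 CPM with ASO and 94.7, 150, 183 and 193 CPM in controls, with control library 1 lowest. NovelmiRNA-1364 (Length 21) had 144, 127, 103 and 142 CPM with ASO and 183, 163, 141 and 134 CPM in controls, with control library 1 highest. In both rows the groups overlapped. The other rows among the 10 most abundant were NovelmiRNA-1934 (79.6 CPM over all 8 libraries), NovelmiRNA-607 (59.5), NovelmiRNA-1947 (48.8), NovelmiRNA-1558 (43.3), NovelmiRNA-620 (41.6) and NovelmiRNA-768 (32.3). Their Lengths were 22, 20, 20, 19, 22 and 22.

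By rows, the 79 centred on the Length of mature microRNAs. The median Length was 22, with 28 rows at 22, 17 at 23 and 11 at 24. Lengths from 21 to 23 made up 51 of the 79 (64.6%), against 72.0% of the 1885 predicted rows not found in every library and 86.1% of the 482 known microRNAs found in every library. Lengths of 18 and 19 made up 13.9% of members, 8.28% of the other predicted rows and 1.87% of those known microRNAs. The rule did not use Length, and these shares are given as a description of 1 table.

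By counts, the members centred elsewhere. The 8 rows of Length 18 held 60.1% of all member counts, so that the median Length weighted by count was 18, against 22 for the known microRNAs found in every library. In single libraries the share of Length 18 ran from 54.9% (ASO library 3) to 65.8% (ASO library 4). Nearly all of it came from NovelmiRNA-1633 and NovelmiRNA-458. The other 6 rows of Length 18, led by NovelmiRNA-1297 with 32.2 CPM, held 2.72%. Rows of Length 22 held 10.9% of the counts and rows of Length 23 held 10.1%. Among predicted rows not found in every library, Lengths 18 and 19 held 42.4% and 22.98% of the counts. Single rows weighed heavily there as well. NovelmiRNA-1920 (Length 18) averaged 1714 CPM, and NovelmiRNA-183 and NovelmiRNA-152 (both Length 19) 1034 and 472 CPM. The median of these 1885 rows was 0.134 CPM.

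At the other end, 1 member had a Length of 25, NovelmiRNA-1448, at 3.95 ± 0.773 CPM (ASO) and 5.002 ± 1.14 CPM (control). The most abundant rows of Length 24 were NovelmiRNA-35 (22.7 CPM over all libraries) and NovelmiRNA-173 (18.3 CPM).

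**Figure D3:**
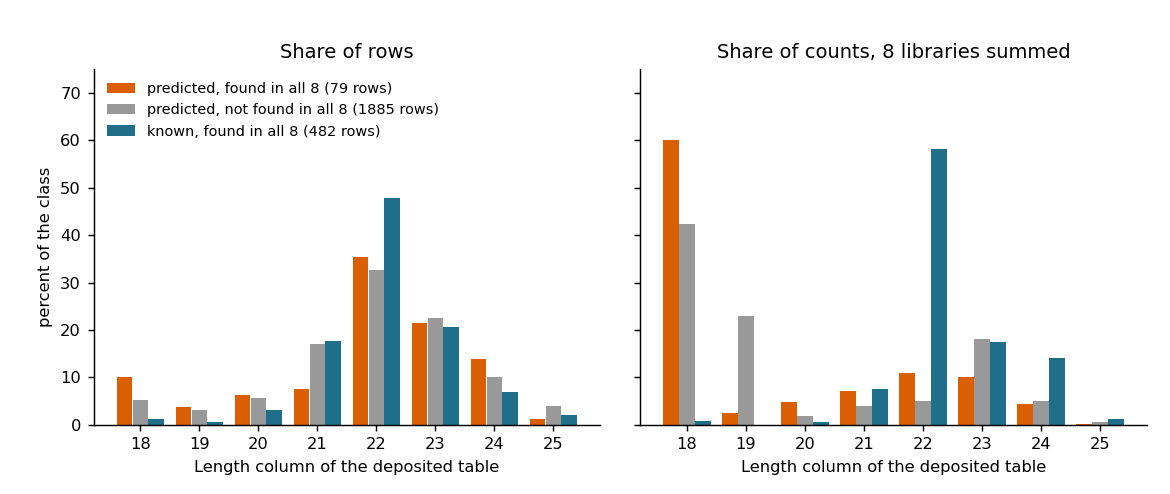
Share of rows (left) and of counts summed over 8 libraries (right), in percent of each class, by the table's Length, for the 79 members (orange), the other 1885 predicted rows (grey) and 482 known microRNAs found in every library (blue). Rows of all 3 classes peak at 22, whereas 60.1% of the members' counts lie at 18.

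Some members were not independent rows. NovelmiRNA-117 and NovelmiRNA-1930, both of Length 24, had identical counts in every library, namely 49, 47, 46 and 44 in ASO libraries 1–4 and 75, 74, 56 and 58 in controls 1–4. NovelmiRNA-526 and NovelmiRNA-533, both of Length 23, were identical as well, with 21, 33, 22 and 22 counts with ASO and 23, 23, 32 and 40 in controls. With each such pair kept once, the 79 rows held 77 distinct count patterns. For comparison, 4 of the 482 known microRNAs found in every library stood in identical pairs. Identical rows were also frequent among other predicted rows. They made up 52 of the 682 found in 2 to 7 libraries (7.62%), beside 4 of the 79 members (5.06%). Of the 50 found in 7 libraries 0 were identical, and of all 1885 outside the set 59.4% were, rows found in 1 library included.

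Other members were nearly identical. NovelmiRNA-173 and NovelmiRNA-400 (both Length 24) had equal counts in 4 libraries and differed by at most 3 counts, or 1.52%, in the rest. They stood at 199, 223, 234 and 180 against 199, 224, 231 and 180 counts with ASO, and at 164, 145, 170 and 197 against 164, 147, 170 and 194 in controls. NovelmiRNA-707 and NovelmiRNA-1544 (both Length 22) were equal in 4 libraries and differed by at most 4 counts, or 4.65%, elsewhere. These 4 rows were chosen for mention after their values were seen.

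Counts of members also recurred in rows outside the set. NovelmiRNA-114 (Length 24) carried exactly the counts of NovelmiRNA-117 and NovelmiRNA-1930 in ASO libraries 1, 3 and 4 and controls 3 and 4, and 0 in the others. NovelmiRNA-662 (Length 24) carried the same counts in ASO library 2 and controls 1 and 2, and 0 elsewhere, so that each library gave the pair's count to 1 of these 2 rows and 0 to the other. NovelmiRNA-313 (Length 24) equalled NovelmiRNA-173 and NovelmiRNA-400 in ASO libraries 1 and 4, with 199 and 180 counts, and was at 0 in the other 6. Whether these rows share a sequence was not tested.

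Equal counts between rows of 1 library were more frequent at low values, and how many would be equal by coincidence was not tested. Of 538 member values of at least 20 counts, 73.98% equalled the value of some other row in the same library, against 30.0% of 170 values of at least 100 and none of the 32 values of at least 1000, identical rows included. In predicted rows outside the set, 11 of 54 values of at least 1000 (20.4%) equalled that of another row.

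**Figure D4:**
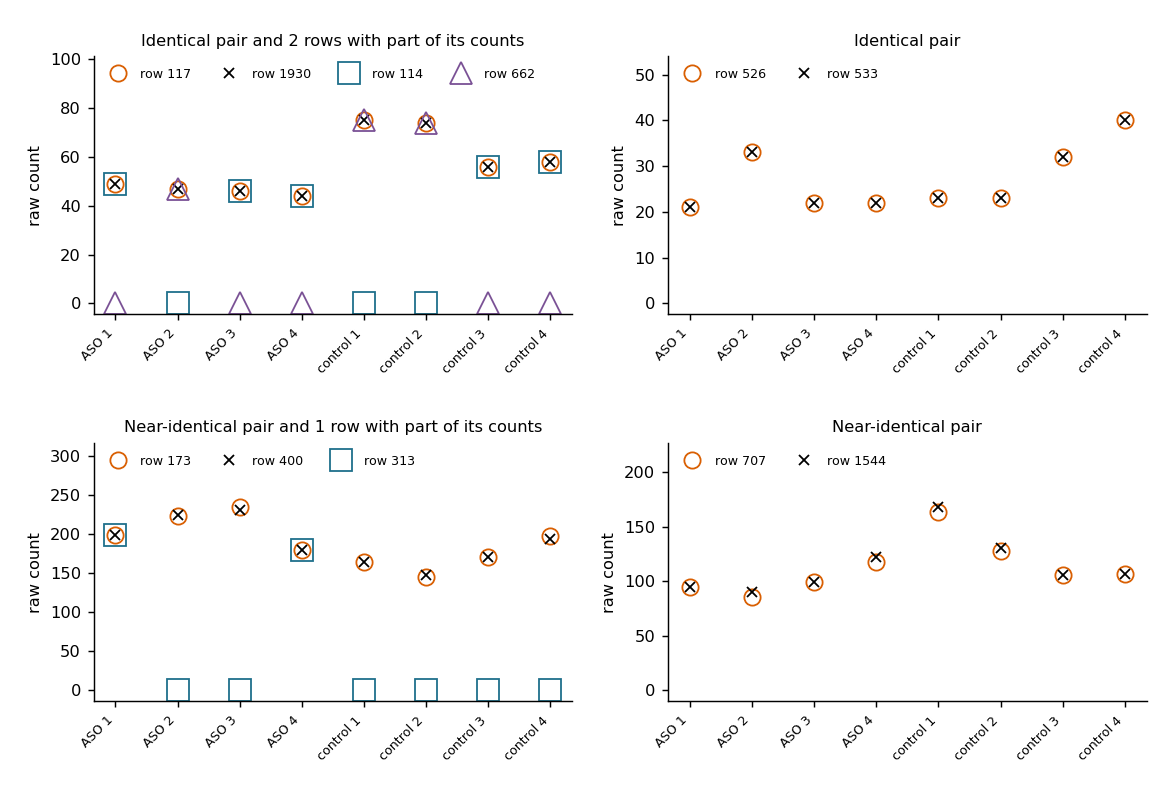
Raw counts in each of the 8 libraries for 2 identical and 2 nearly identical pairs of members (circles and crosses) and for rows outside the set that carry part of their counts (squares and triangles, at 0 where absent). NovelmiRNA-114 and NovelmiRNA-662 take turns in carrying the count of NovelmiRNA-117 and NovelmiRNA-1930.

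Among the 10 most abundant members, some pairs kept a nearly fixed ratio without equal counts. Of the 45 pairs, the ratio of NovelmiRNA-607 to NovelmiRNA-1364 varied least, from 0.399 to 0.453 over the 8 libraries (mean 0.418, coefficient of variation 4.60%). NovelmiRNA-458 to NovelmiRNA-1633 followed with 0.627 to 0.730 (mean 0.670, 5.46%), and NovelmiRNA-1558 to NovelmiRNA-329 with 0.211 to 0.266 (mean 0.240, 8.07%). The median coefficient of variation over the 45 pairs was 28.1% and the largest 77.8%. All ratios come from the same 8 libraries and are given as a description.

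By medians, members varied between libraries somewhat more than known microRNAs in the same range of level, and the gap was widest in the middle range. The coefficient of variation over 8 libraries had a median of 27.7% for the 58 members below 10 CPM and 26.5% for 176 known microRNAs found in every library at those levels. From 10 to 100 CPM it was 19.7% for 17 members and 14.6% for 139 known microRNAs, and from 100 to 1000 CPM it was 15.6% for 4 members and 13.7% for 88 known microRNAs. No test was made of these differences, and levels were not matched within a range. Among members with a mean count of at least 100, NovelmiRNA-1934 varied least (9.10%), with a range of 67.0 to 88.7 CPM, followed by NovelmiRNA-400 (11.0%) and NovelmiRNA-173 (11.3%). NovelmiRNA-1450 varied most (46.4%), between 5.53 CPM in control 4 and 20.3 CPM in control 1, and after it came NovelmiRNA-620 (36.0%) and NovelmiRNA-319 (27.3%).

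Weak members could differ far more. NovelmiRNA-1795, named after its values were seen, spanned 0.614 CPM (7 counts, control 4) to 6.41 CPM (65 counts, control 1), a ratio of 10.4 between 2 libraries of the same group. The highest level was in control library 1 for 26 of the 79 members and in control library 2 for 19. The lowest was in ASO library 3 for 18 and in ASO library 2 for 15. In all, 56 members peaked in a control library and 23 in an ASO library, identical rows included. The same counts over all rows tested are not given here, so these were not read as a result about the members.

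No member was called higher or lower with ASO. Of the 79, 78 passed the filter of a mean count of at least 10 and a count above 0 in at least 4 libraries, and NovelmiRNA-77 did not. With edgeR's quasi-likelihood test and Benjamini-Hochberg adjustment over all 745 rows tested, 0 of 78 passed an adjusted p of 0.05, beside 0.134% of all rows. At an unadjusted p under 0.05 there were 6 of 78 (7.69%), beside 10.5% of all rows, and all 6 were lower with ASO, beside 6.04% of all rows for lower and 4.43% for higher. The 6 held 5 distinct count patterns, since NovelmiRNA-117 and NovelmiRNA-1930 were identical. DESeq2 also called 0 of 78, beside 21 of 745 rows (2.82%). It gave no adjusted p to some weak members, among them NovelmiRNA-659, NovelmiRNA-1035 and NovelmiRNA-1805, which thus could not be called. Rows without an adjusted p are counted here as not called. With DESeq2, 6 members had an unadjusted p under 0.05, beside 14.8% of all rows. With limma-voom, 0 of 78 were called, beside 4 of 745 rows, and 6 had an unadjusted p under 0.05. Leaving out 1 library moved that edgeR count of 6 in both directions. The count fell to 4 on leaving out ASO library 1, to 3 without ASO library 2 or control library 2, and to 2 without ASO library 3 or control library 1, but rose to 8 without ASO library 4 or control library 3 and to 9 without control library 4. It was 1 with no filter on low counts and 4 of 76 with identical rows kept once. For limma-voom and these settings the share of all rows at that p is not given here, so the counts were not compared with it.

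The members' fold changes leaned below 1. The fitted log2 fold change was below 0 in 53 of 78 members (67.9%), beside 48.3% of all rows tested, and the median was −0.18, beside 0.01 over all rows and 0.05 over the 539 known rows tested. Of the 128 other predicted rows tested, 73 (57.0%) lay below 0, with a median of −0.13. Each of these rows was at 0 in at least 1 library, and their median SE was 1.38, against 0.249 for members. They thus cannot show whether the lean was limited to the 79. Without control library 1 the median was −0.13, with 48 of 79 below 0. The median was −0.09 among the 23 members with a mean count of at least 100. By Length, 9 of 16 rows from 18 to 20 lay below 0 (median −0.08), 35 of 50 from 21 to 23 (median −0.22) and 9 of 12 from 24 to 25 (median −0.32). The 10 most abundant members were split evenly, with 5 above and 5 below 0 (median −0.05). These counts include identical rows, and no test was made of the set as a whole, since its members had been proposed with results of these data known.

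**Figure D5:**
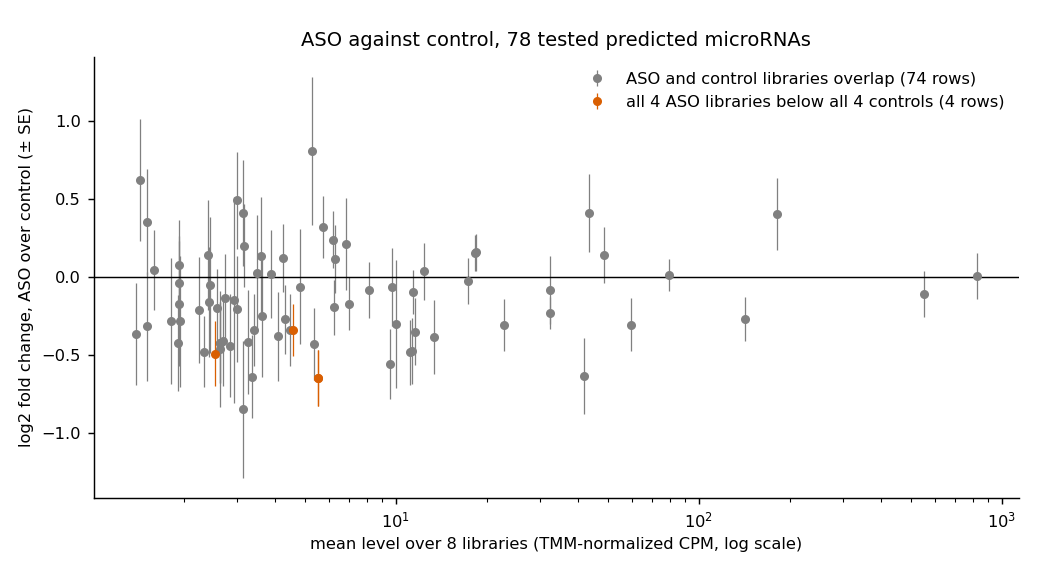
Log2 fold change of ASO over control (± SE, edgeR) against mean level (TMM-normalized CPM, log scale) for the 78 tested members. Points in orange are the 4 rows (3 visible positions, since 2 rows are identical) whose ASO libraries all lay below all controls, and more points lie below 0 than above it.

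In 4 of 78 members (5.13%) all ASO libraries lay below all controls, beside 5.23% of all rows, and in none did they lie above, beside 3.09% (8.32% of all rows in either direction). These 4 rows held 3 distinct count patterns. NovelmiRNA-117 and NovelmiRNA-1930 averaged 4.33 ± 0.464 CPM in ASO libraries against 6.76 ± 1.21 CPM in controls, a log2 fold change of −0.64 (SE 0.18, 95% interval −1.06 to −0.22, edgeR adjusted p = 0.402). The highest ASO library stood at 4.996 CPM and the lowest control at 5.09 CPM, so the groups were separated by about 1 count. DESeq2 gave this pair an adjusted p of 0.0676.

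NovelmiRNA-1805 stood at 2.04, 2.10, 2.23 and 2.03 CPM in the ASO group and at 3.65, 2.66, 2.52 and 2.98 CPM in the controls (log2 fold change −0.49, SE 0.21, edgeR adjusted p = 0.445). NovelmiRNA-131 stood at 4.08, 4.20, 3.57 and 4.34 CPM with ASO and at 4.93, 6.27, 4.55 and 4.74 CPM in controls (−0.34, SE 0.17, edgeR adjusted p = 0.446), and −0.22 without control library 2. Both rest on 20 to 59 counts per library, and neither passed the threshold.

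Among the smallest p-values were also rows whose groups overlapped. NovelmiRNA-620 averaged 32.6 ± 4.83 CPM in ASO libraries and 50.6 ± 16.9 CPM in control libraries, and its edgeR log2 fold change was −0.63 (SE 0.24, adjusted p = 0.445). Control library 1 alone stood at 72.7 CPM, and without it the log2 fold change was −0.39. NovelmiRNA-30 averaged 7.76 ± 1.17 CPM (ASO) and 11.4 ± 3.07 CPM (control; log2 fold change −0.56, SE 0.22). NovelmiRNA-1035 averaged 2.62 ± 0.449 and 4.08 ± 1.25 CPM (−0.64, SE 0.27), and −0.40 without control library 1. Both had an edgeR adjusted p of 0.445.

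For the abundant members the fold change is given with its interval. NovelmiRNA-1633 averaged 829.9 ± 183 CPM in ASO libraries and 826.4 ± 14.002 CPM in controls, a fold of 1.004 (95% interval 0.791 to 1.27). NovelmiRNA-458 averaged 534 ± 115 and 575 ± 23.9 CPM, a fold of 0.928 (0.732 to 1.18). NovelmiRNA-1934 averaged 80.0 ± 6.35 and 79.2 ± 9.03 CPM, a fold of 1.01 (0.853 to 1.20). The fold changes of NovelmiRNA-1633 and NovelmiRNA-1934 changed sign when single libraries were left out. These intervals are for single rows, without adjustment for the 745 rows tested, and do not mark the smallest change that the adjusted test could call.

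The remaining rows among the 10 most abundant did not pass the threshold either. Pairs with a steady ratio over the 8 libraries have near-equal fold changes by construction. NovelmiRNA-329 had a log2 fold change of 0.41 (SE 0.23) and NovelmiRNA-1558 of 0.41 (SE 0.25), which were 0.24 and 0.26 without control library 1. NovelmiRNA-1364 was at −0.27 (SE 0.14) and NovelmiRNA-607 at −0.30 (SE 0.17), or −0.16 for both without control library 1. NovelmiRNA-1947 was at 0.14 (SE 0.18), which turned to −0.044 without ASO library 3, and NovelmiRNA-768 at −0.23 (SE 0.11, or −0.13 without control library 1). Their edgeR adjusted p-values lay between 0.445 and 0.798.

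The widest fitted changes among members came from weak rows and were named after their values were seen. NovelmiRNA-659 had the lowest log2 fold change, −0.85 (SE 0.44, edgeR adjusted p = 0.464), and −0.49 without control library 1. NovelmiRNA-754 had the highest, 0.81 (SE 0.47, edgeR adjusted p = 0.505), and 0.19 without ASO library 3.

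The share of predicted counts that fell on members depended on a row outside the set. Members held 23.8% ± 3.98 of predicted counts with ASO and 33.2% ± 8.26 in controls. NovelmiRNA-1920 (Length 18) had 24177, 36292, 25692 and 26712 counts in ASO libraries 1 to 4, 37931 in control 4 and 0 in controls 1 to 3. Without that row the members' share was 32.4% ± 6.37 with ASO and 35.9% ± 4.97 in controls.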

How the data were processed

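Libraries came from a NEB small RNA kit after miRNeasy (Qiagen) extraction of total RNA, per the labels' protocols. bcl2fastq 2.20, Trimmomatic 0.30, edgeR 3.4.6 and GRCh38 were used, per the submitters' processing notes. Which program aligned, counted or predicted rows is not given in the sources used here. Adapter ligation and PCR favour some sequences, so a row compares better between libraries than with other rows.

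The authors deposited 1 table of raw counts per row and library. Its 8 columns headed TPM are CPM: per the file headers and values, the deposited CPM equal the count scaled to the library total, within 0.223 CPM. It also gives an unnormalized Length as another deposited value with no stated unit.

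The 745 rows with a mean count of 10 or more and a count above 0 in 4 or more libraries were tested with edgeR 4.0.16 (quasi-likelihood, TMM factors 0.966 to 1.03, library totals kept), two-sided, at an adjusted p of 0.05. An SE is the log2 fold change over the root of F. Tested on simulated data with 200 of 745 rows changed, edgeR found 14.6% of rows changed 1.5-fold, 34.5% of those changed 2-fold and 53.97% of those changed 4-fold. The changed rows were drawn from all 745, so these shares are not shares for the members. The median SE in the data was 0.249 for members tested and 1.38 for the other predicted rows tested. DESeq2 1.42.0, limma 3.58.1, other scalings and filters, identical rows kept once, a replicate block and leaving out each library were the alternatives. Counts of libraries of a group were further apart than counting error allows (smallest chi-square over its degrees of freedom 135), so none was treated as 1 library deposited again. This does not show that they came from separate cultures.

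The members and lists were chosen with earlier results of these data known. Members named were the 10 most abundant, the 5 smallest p, those with groups apart, identical rows, the 3 most and least variable (mean count at least 100), the 3 shortest and longest, the 3 with the lowest count and the 3 most abundant rows found in 7 libraries; others are marked as chosen after their values were seen.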

Additional observations from a re-analysis of the deposited data

Results flagged for a closer look

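Among 66 groups of 4 libraries examined for 31 members named and 2 summed shares, 1 group had a library far from its other 3, where chance alone gives about 1 in 20. NovelmiRNA-754 (Length 18) stood at 13.67 CPM in ASO library 3, from 153 counts, against 3.38 to 4.996 CPM in the other ASO libraries, so that the gap took 0.843 of the group's range, past the 95% critical value of Dixon's test. The controls stood at 2.27, 4.14, 4.55 and 4.39 CPM. This row was added to those examined after its values were seen.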

How the results depend on the processing

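In all 16 alternatives, 0 members were called, and the members' median log2 fold change stayed below 0 (−0.24 to −0.13 on leaving out 1 library, −0.19 to −0.09 otherwise). Few rows of any kind were called there. DESeq2, which left some members without an adjusted p, called 21 of 745 rows, and the other alternatives called 0 to 5. With no filter on low counts, with the replicate block and without control library 2, 0 rows were called. The library number as a replicate block gave a median of −0.15 with 3 members at an unadjusted p under 0.05 and a smallest adjusted p of 0.509 among members. The share of all rows at that unadjusted p is not given here. The labels do not say that library numbers pair libraries, so the main fit held no block. Deviations of same-numbered libraries correlated at 0.0074, 0.034, 0.30 and −0.039. The ASO and control libraries numbered 3 each correlated best with one another, which held for no other number. These values do not settle whether the numbers pair libraries. Of 279 alternative log2 fold changes for 18 members, 268 kept their direction. The alternatives refit the same counts, and the 18 include members picked for a small p or a wide change in these data. They also include the identical rows NovelmiRNA-117 and NovelmiRNA-1930, so the count is a description only. NovelmiRNA-1633 turned to −0.0054 with DESeq2 size factors and with DESeq2, −0.020 with limma-voom and −0.020 with the replicate block, and ranged from −0.14 to 0.092 on leaving out 1 library. That range was −0.048 to 0.081 for NovelmiRNA-1934 and −0.044 to 0.27 for NovelmiRNA-1947. The cause was not tested. The difference in the members' share of all counts ranged from −0.018 to 0.0069 points on leaving out 1 library (above 0 without ASO library 1 or 3), was −0.0044 with the replicate block and −9.43 points of predicted counts. For the 5 most abundant members the difference was 0.00073 points (also with the replicate block), −6.46 points of predicted counts, −0.00063 without the most abundant, and −0.012 to 0.012 on leaving out 1 library. The median Length of 22 became 18 when weighted by count. The number of members was 73 at a minimum of 10 counts, 79 at 3 counts and 81 to 89 when 1 library was left out, and 4 members stood in identical pairs under every alternative run. Leaving out a library can only keep or raise both numbers, and a looser rule for equal counts can only keep or raise the second. Members below 10 CPM rest on few counts, which limits what can be resolved.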
